A study of Mus musculus with 20 samples.

Results

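The replication-dependent histone genes were taken as the protein-coding genes of the GENCODE vM21 basic annotation (build mm10) whose symbol starts with Hist1h, Hist2h, Hist3h or Hist4h. This rule, which used no measured value, found 67 of 21951 protein-coding genes. The Hist1 cluster on chromosome 13 held 54 of them between positions 21715763 and 23934851, a span of 2219 kb, and the Hist2 cluster on chromosome 3 held 10 between 96219865 and 96270132, a span of 50.27 kb. The remaining members were the Hist3 pair Hist3h2ba and Hist3h2a on chromosome 11 and the single gene Hist4h4 on chromosome 6. By class, 5 members encoded a linker histone H1, 17 an H2A, 17 an H2B, 12 an H3 and 13 an H4, and 3 were the testis-type genes Hist1h1t, Hist1h2aa and Hist1h2ba. Peaks were collected where any part of them lay within 1 kb of a transcription start site (TSS) and between the first and last gene of each cluster.

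Replication-dependent histone genes supply the histones that package newly made DNA, and most are short, have no introns and are transcribed as cells pass through S phase. Their mRNAs end in a stem-loop bound by SLBP in place of a poly(A) tail, and H2A and H2B genes often lie head to head on a shared promoter. CTCF is a zinc finger protein that stops the cohesin ring as it extrudes chromatin loops, MAZ is a zinc finger protein that binds G-rich promoters, and RAD21 is a subunit of cohesin.

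Chromatin immunoprecipitation with sequencing (ChIP-seq) for CTCF, MAZ and RAD21 was done in E14 mouse embryonic stem cells. In every group, controls included, CTCF carried an auxin-inducible degron, so that adding auxin removes the protein. Cells without auxin are called WT, cells after auxin ΔCTCF, Maz knockout cells without auxin ΔMAZ and Maz knockout cells after auxin ΔCTCF/ΔMAZ. The titles give 2 days of auxin for the libraries with a peak list, and the titles of the knockout samples carry the single name B2. The series had 20 samples, and 12 of them, 1 per antibody and condition, had a list of peaks. The further 8 CTCF and MAZ samples were not analysed here. With 1 list per group there was no replicate check, so no difference between conditions was tested. Intervals cover counting error only.

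The lists matched their labels. CTCF peaks went from 26394 in WT to 2381 in ΔCTCF and from 26053 in ΔMAZ to 2570 in ΔCTCF/ΔMAZ, while MAZ peaks numbered 6265 in WT, 6759 in ΔCTCF and 33 in each knockout list. RAD21 went from 20371 peaks in WT to 17912 in ΔCTCF, and from 20872 in ΔMAZ to 6400 in ΔCTCF/ΔMAZ. Depth was unequal: by the lowest background over the smallest peak width, an index of relative depth, RAD21 in ΔCTCF was 2.18 times as deep as in WT and 2.34 times as deep as in ΔCTCF/ΔMAZ, and MAZ in WT was 2.65 times as deep as in ΔCTCF. Fold enrichment is the read pileup over the local background at a peak's summit, each plus 1, within its own library, so its values are not on a common scale between lists.

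Over all 12 lists, 14 of the 67 histone genes had at least 1 peak within 1 kb of their TSS (20.9%, 95% Wilson interval 12.9 to 32.1%), where 38.8% of all genes did, and 53 had none. The 14 were 8 H4 genes, 3 H1 genes, 2 H3 genes and 1 H2B gene, and none of the 17 H2A genes or the 3 testis-type genes was among them. The heat map of fold enrichment gives every value.

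**Figure D1:**
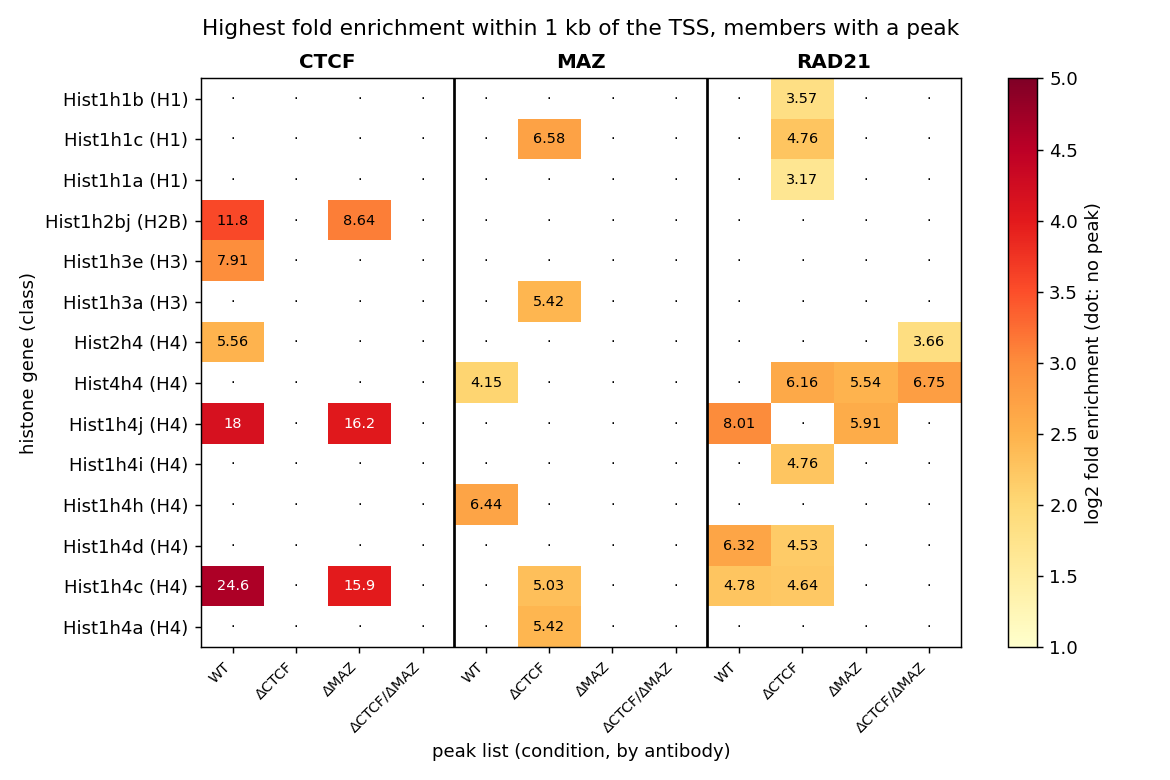
Highest fold enrichment of a peak within 1 kb of the TSS for the 14 histone genes (rows, class in parentheses) with a peak in any of the 12 lists (columns, 4 conditions for each antibody), with a dot for no peak. The CTCF columns are empty after auxin, the MAZ columns are empty in the knockout, and the ΔCTCF column of RAD21 is the fullest, with 7 genes.

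CTCF lay within 1 kb of 5 members in WT (7.46%, 95% Wilson interval 3.23 to 16.3%), where 8.6% of all genes had a CTCF peak. It lay near 3 members in ΔMAZ, against 8.45% of all genes. No member had a CTCF peak in ΔCTCF or in ΔCTCF/ΔMAZ, where 1.22% and 1.33% of all genes did, and a count of 0 of 67 allows a share of up to 4.48% by a limit of 3 counts, or 5.42% by the Wilson interval. MAZ lay near 2 members in WT, or 2.99% (0.822 to 10.2%), and near 4 in ΔCTCF, or 5.97% (2.35 to 14.4%), against 19.6% and 20.4% of all genes. The intervals of the members lay below the share of all genes in both MAZ lists. They treat genes as independent, though members within 1 kb of each other can share a peak. Counted as shared promoters, the 67 members were 54. In ΔMAZ and in ΔCTCF/ΔMAZ no member had a MAZ peak, and 0.0319% of all genes had one in each.

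RAD21 lay near 3 members in WT (4.48%, 1.53 to 12.4%) and 7 in ΔCTCF (10.4%, 5.15 to 20%), and near 2 in each knockout list (2.99%, 0.822 to 10.2%). The shares of all genes were 6.71%, 17%, 8.7% and 5.7%. Each of the 4 intervals of the members held the share of all genes. After auxin 5 members had a RAD21 peak in ΔCTCF and none in WT, or 7.46%, where 13% of all genes had this pattern. A single member, Hist1h4j, had the reverse, where 2.68% of all genes did.

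**Figure D2:**
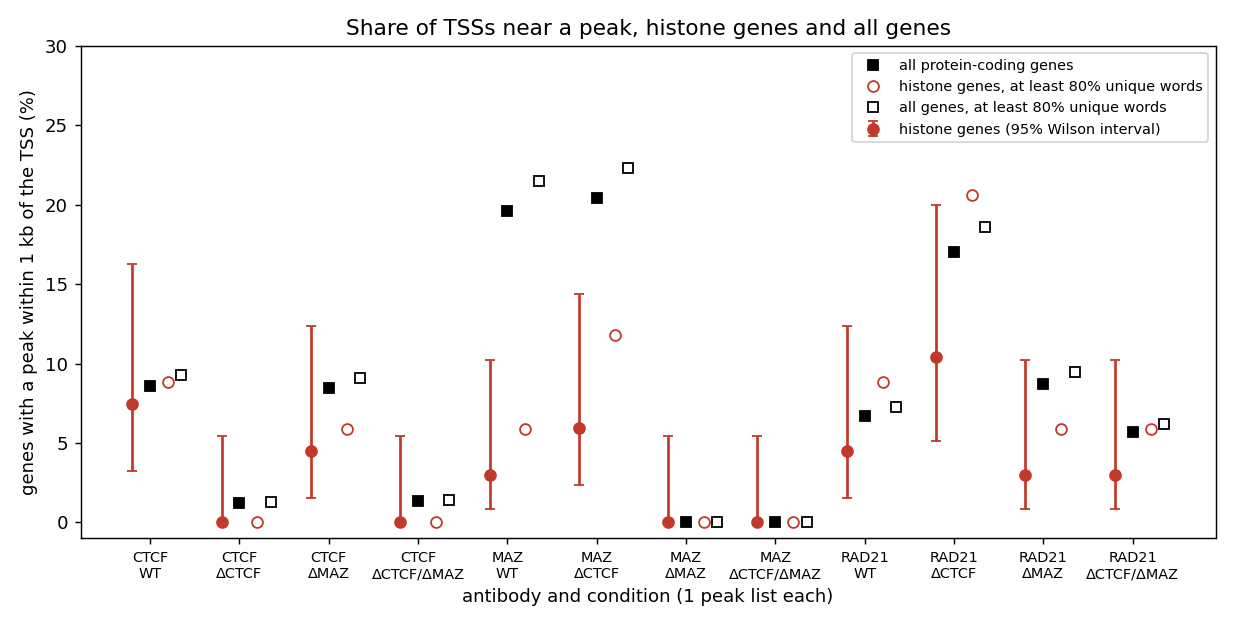
Share of TSSs with a peak within 1 kb (y axis, %) in each of the 12 lists (x axis) for the 67 histone genes (filled circles, with 95% Wilson intervals) and all 21951 protein-coding genes (filled squares); open symbols are the genes with at least 80% unique sequence words. In the MAZ lists of WT and ΔCTCF the filled circles, 2.99% and 5.97%, sit far below the squares, 19.6% and 20.4%, while in the RAD21 lists the intervals hold the squares.

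The sequence round histone genes is repeated between copies, and this moved with the calls. Within 1 kb of each TSS the share of 50-base words that occur once in the genome was computed. Its median was 80.7% for the members and 100% for all genes. It was 0% for Hist1h2ao, Hist1h2ap, Hist1h2bq and Hist1h2br, whose surroundings exist in identical copies, and 7.02% and 8.04% for Hist1h4m and Hist1h4n. The class medians were 100% for H1, 90% for H4, 77.7% for H3 and 70% for both H2A and H2B. Members with a peak had a median of 91.1% and members without one 74.2%.

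Of the 34 members with at least 80% unique words 12 had a peak in some list (35.3%, 21.5 to 52.1%), where 42.3% of all genes with that share did. Of the 33 members below 80%, 2 had a peak (6.06%), Hist1h2bj and Hist1h3e, both bound by CTCF, against 4.32% of all such genes. Among the 34 members RAD21 was called at 8.82% in WT and 20.6% in ΔCTCF, against 7.28% and 18.6% of all genes with the same share. MAZ was called at 5.88% of the 34 members in WT (1.63 to 19.1%), below the 21.5% of all such genes, and at 11.8% in ΔCTCF (4.67 to 26.6%), an interval that held the 22.3% of all such genes. Reads had been mapped at the default settings of the aligner and filtered by quality. The read length and the threshold of that filter were not given in the sources used here, and the part of repeated sequence in the missing peaks was not tested. The promoters themselves, from 250 bases before to 50 after the TSS, had a median of 100% unique words in members with and without a peak.

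**Figure D3:**
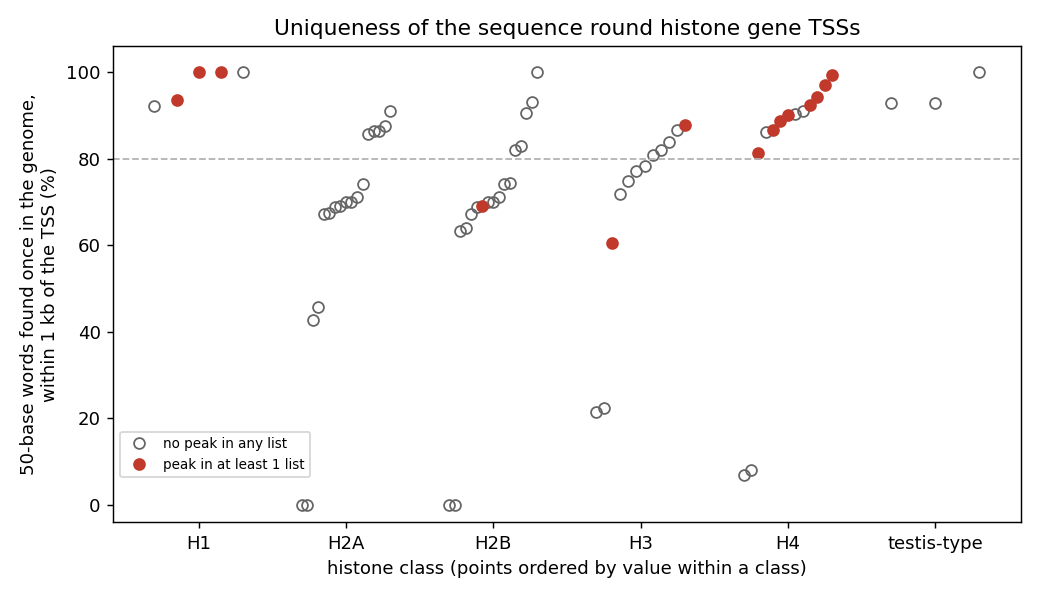
Share of 50-base words within 1 kb of the TSS that occur once in the genome (y axis, %) for the 67 histone genes by class (x axis), with filled points for the 14 genes that had a peak in any list and a dashed line at 80%. All but 2 filled points lie above the line, and none of the H2A points is filled.

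CTCF summits near histone genes lay mostly off the promoter. They are shown here as 101 bases centred on the WT summit (build mm10, plus strand), because this sequence is what the CTCF peaks near members share or lack. Capitals mark a CTCF core word, namely AGGGGGC or the variant with T, AGGTGGC, the variant with AT, AGATGGC, and a later addition, AGAGGGC, on either strand. The last word was added after the first windows had been seen.
Hist1h4j, chr13:21734236-21734336: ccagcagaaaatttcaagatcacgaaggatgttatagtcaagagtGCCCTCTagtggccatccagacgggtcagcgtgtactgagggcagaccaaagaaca
Hist1h2bj, chr13:22044267-22044367: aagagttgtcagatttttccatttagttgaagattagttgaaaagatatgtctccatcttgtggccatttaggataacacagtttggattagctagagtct
Hist1h3e, chr13:23563299-23563399: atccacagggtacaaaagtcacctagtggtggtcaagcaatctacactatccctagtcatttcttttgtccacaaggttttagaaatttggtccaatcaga
Hist1h4c, chr13:23697543-23697643: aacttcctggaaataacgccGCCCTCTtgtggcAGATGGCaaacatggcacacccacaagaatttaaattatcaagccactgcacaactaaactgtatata
Hist2h4, chr3:96263531-96263631: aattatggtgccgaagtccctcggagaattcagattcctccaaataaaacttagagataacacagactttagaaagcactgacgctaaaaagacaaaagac
A core word was present at Hist1h4j, where it was the later addition, and at Hist1h4c, and was absent at Hist1h2bj, Hist1h3e and Hist2h4. Over the clusters 10 of 21 WT CTCF summits had one within this window (47.6%), and 65.3% of all WT CTCF peaks did; with the first 3 words alone the numbers were 7 of 21 and 36.5%.

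Hist1h4c, an H4 gene, had the highest CTCF fold enrichment of the members in the WT list. It was 24.6 in WT, from a pileup of 36 reads, with a counting interval of 17.5 to 33.9, and 15.9 in ΔMAZ (10.2 to 23.8), with no CTCF peak after auxin in either line. The summit lay 861 bases downstream of the TSS in both lists, just past the end of the gene. RAD21 had a peak at the same place in WT, at 4.78 (2.52 to 8.43) and 865 bases downstream. In ΔCTCF the RAD21 peak within 1 kb lay instead 89 bases upstream of the TSS, at 4.64 (2.95 to 6.99), and MAZ had a peak 133 bases upstream, at 5.03 (2.79 to 8.5). No RAD21 or MAZ peak was called near this gene in ΔMAZ or ΔCTCF/ΔMAZ. The RAD21 peaks of WT and ΔCTCF did not overlap, although both counted for the gene.

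Hist1h4j, another H4 gene, had CTCF at 18 in WT (12.2 to 25.8) and 16.2 in ΔMAZ (10.6 to 23.7), 778 and 774 bases upstream of its TSS. RAD21 lay at the same place at 8.01 in WT (4.92 to 12.4) and 5.91 in ΔMAZ (3.63 to 9.16), and neither protein was called there after auxin. Hist1h2bj, an H2B gene, had CTCF at 11.8 in WT and 8.64 in ΔMAZ, 1103 and 1112 bases downstream of the TSS, beyond the end of the gene, and no RAD21 in any list. Hist1h3e had a CTCF peak only in the WT list, at 7.91 and 980 bases upstream. Hist2h4 also had one only in WT, at 5.56 with a pileup of 8 reads, which put it in the lowest 4.1% of that list, and a RAD21 peak in ΔCTCF/ΔMAZ at 3.66 with a −log10 q of 2.26, at the 0.922 percentile of its list.

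Promoters of the members that carried MAZ, or RAD21 in ΔCTCF, are shown as RefSeq gives them (build GRCm38.p6, 300 bases, 250 before to 50 after the RefSeq start, in the direction of transcription), because these are the promoters of the genes whose MAZ and RAD21 peaks are described next. Hist1h3a, which also had MAZ in ΔCTCF, was not matched to a RefSeq promoter here. Several of those peaks lay wholly or partly outside these windows, among them the MAZ and RAD21 peaks of Hist1h1c and the higher RAD21 peak of Hist1h4i, and Hist1h4h had MAZ alone. Capitals mark the MAZ core GGGAGGG, the TATA box TATAAA, the CCAAT box CCAAT or the octamer ATTTGCAT, on either strand.
Hist1h4c, chr13:23698409-23698708, minus strand: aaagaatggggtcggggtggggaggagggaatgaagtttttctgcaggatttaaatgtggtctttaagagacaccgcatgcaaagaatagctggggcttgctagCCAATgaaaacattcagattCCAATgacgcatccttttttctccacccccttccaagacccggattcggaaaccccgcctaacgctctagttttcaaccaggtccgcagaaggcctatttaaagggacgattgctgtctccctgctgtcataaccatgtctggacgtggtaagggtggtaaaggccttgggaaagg
Hist1h4h, chr13:23530794-23531093, plus strand: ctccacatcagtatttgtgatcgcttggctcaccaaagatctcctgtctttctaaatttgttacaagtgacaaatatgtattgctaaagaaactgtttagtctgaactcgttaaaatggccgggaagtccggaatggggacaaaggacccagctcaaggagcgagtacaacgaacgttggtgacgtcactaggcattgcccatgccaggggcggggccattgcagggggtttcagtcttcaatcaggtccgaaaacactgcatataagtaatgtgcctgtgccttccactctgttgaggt
Hist4h4, chr6:136804382-136804681, minus strand: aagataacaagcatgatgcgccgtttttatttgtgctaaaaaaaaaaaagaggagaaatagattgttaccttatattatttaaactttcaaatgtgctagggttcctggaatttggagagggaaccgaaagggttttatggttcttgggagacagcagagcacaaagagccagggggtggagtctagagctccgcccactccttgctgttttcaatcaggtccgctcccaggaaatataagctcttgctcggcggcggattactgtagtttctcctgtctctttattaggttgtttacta
Hist1h4i, chr13:22041313-22041612, minus strand: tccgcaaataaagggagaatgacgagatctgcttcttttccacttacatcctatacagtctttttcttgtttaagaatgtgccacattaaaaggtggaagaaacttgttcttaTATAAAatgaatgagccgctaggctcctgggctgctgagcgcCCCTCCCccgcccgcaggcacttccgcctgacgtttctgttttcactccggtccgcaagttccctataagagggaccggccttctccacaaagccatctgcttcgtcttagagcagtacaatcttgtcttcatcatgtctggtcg
Hist1h4d, chr13:23581318-23581617, plus strand: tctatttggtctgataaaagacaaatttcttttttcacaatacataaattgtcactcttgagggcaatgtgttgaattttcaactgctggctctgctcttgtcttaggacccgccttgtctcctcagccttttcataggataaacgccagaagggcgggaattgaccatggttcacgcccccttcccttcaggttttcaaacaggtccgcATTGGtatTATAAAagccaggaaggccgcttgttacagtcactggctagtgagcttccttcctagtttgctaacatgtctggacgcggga
Hist1h1b, chr13:21780576-21780875, minus strand: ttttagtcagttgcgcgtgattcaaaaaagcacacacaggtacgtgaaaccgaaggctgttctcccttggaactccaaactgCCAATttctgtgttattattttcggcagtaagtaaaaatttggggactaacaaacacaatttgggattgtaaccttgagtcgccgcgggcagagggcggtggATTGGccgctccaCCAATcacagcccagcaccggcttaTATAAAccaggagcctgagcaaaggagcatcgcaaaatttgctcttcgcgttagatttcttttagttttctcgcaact
Hist1h1c, chr13:23738557-23738856, plus strand: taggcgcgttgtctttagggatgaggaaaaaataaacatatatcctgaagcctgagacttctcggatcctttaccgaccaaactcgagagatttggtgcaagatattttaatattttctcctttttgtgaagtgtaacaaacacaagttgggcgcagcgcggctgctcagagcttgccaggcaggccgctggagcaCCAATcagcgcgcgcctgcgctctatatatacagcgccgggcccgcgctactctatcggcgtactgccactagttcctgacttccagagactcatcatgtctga
Hist1h1a, chr13:23763418-23763717, plus strand: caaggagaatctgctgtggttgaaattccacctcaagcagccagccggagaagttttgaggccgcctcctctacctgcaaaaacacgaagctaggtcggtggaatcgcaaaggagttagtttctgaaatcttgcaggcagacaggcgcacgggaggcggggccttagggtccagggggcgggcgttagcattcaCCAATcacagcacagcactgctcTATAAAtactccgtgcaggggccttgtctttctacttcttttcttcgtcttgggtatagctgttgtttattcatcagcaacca
Hist1h4a, chr13:23761200-23761499, minus strand: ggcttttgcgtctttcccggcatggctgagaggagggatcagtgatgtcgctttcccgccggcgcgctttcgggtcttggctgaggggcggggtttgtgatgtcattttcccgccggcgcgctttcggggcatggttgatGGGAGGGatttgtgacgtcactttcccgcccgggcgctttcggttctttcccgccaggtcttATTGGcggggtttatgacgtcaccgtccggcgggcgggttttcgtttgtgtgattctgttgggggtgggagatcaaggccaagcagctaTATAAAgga
The MAZ core was found in 2 of these promoters, those of Hist1h4i, where no MAZ peak was called, and Hist1h4a, which had one in ΔCTCF.

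Of the members, 62 matched a RefSeq promoter. The CCAAT box was in all 47 matched promoters of H1, H2A, H2B and H3 genes and in 3 of 12 H4 promoters, against 37.4% of 32817 promoters of all genes. The TATA box was in 35 of 62 (56.5%, all promoters 13.6%). The octamer, the site of the POU factor OCT1, was in 11 of 32 H2A and H2B promoters (34.4%, all promoters 1.74%), in both promoters of the testis-type pair Hist1h2ba and Hist1h2aa, and in none of the H1, H3 or H4 promoters. The MAZ core was in 6 of 62 (9.68%, all promoters 21.9%), and 4 of these 6 were H4 genes, Hist1h4a, Hist1h4i, Hist1h4j and Hist1h4k. Median GC content was 45.3% for the members and 52.7% for all promoters. A match to so short a word is a description of the letters and not a binding site.

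The members with MAZ in WT and those with MAZ in ΔCTCF were different genes. Over the clusters, 0 of 5 WT MAZ peaks overlapped one in ΔCTCF (Wilson interval up to 43.4%), where 66.3% of all WT MAZ peaks did, and 0 of 3 ΔCTCF peaks overlapped one in WT (up to 56.1%, all peaks 61.6%). The WT list was 2.65 times as deep, and the part of depth was not tested. In WT they lay at Hist1h4h, 31 bases upstream of the TSS at 6.44 (4.44 to 9.05), and at Hist4h4, 29 bases upstream at 4.15 (2.78 to 5.96). In ΔCTCF they lay at Hist1h4c, at Hist1h1c 816 bases downstream within the gene at 6.58 (3.93 to 10.4), and between Hist1h4a and Hist1h3a at 5.42 (3.07 to 8.99), a single peak counted for both genes. Pileups behind the ΔCTCF peaks were 12 to 16 reads. No MAZ summit in the clusters, of 5 in WT and 3 in ΔCTCF, had the MAZ core within its 101 bases, where 32.3% and 28.2% of all MAZ peaks in these lists did.

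The members with RAD21 in ΔCTCF and not in WT were Hist4h4, the H4 gene Hist1h4i and the linker histone genes Hist1h1b, Hist1h1c and Hist1h1a. Hist4h4 was at 6.16 in ΔCTCF (4.48 to 8.28), from 42 reads at the summit and with a −log10 q of 18.3. RAD21 was also called there in both knockout lists, at 5.54 without auxin (3.4 to 8.58) and 6.75 after it (4.03 to 10.7). The WT list was the only RAD21 list without a peak there, and the 3 intervals overlapped. It was also the only one of the 5 genes with a RAD21 peak in ΔCTCF/ΔMAZ. Its summits lay from 101 bases upstream to 233 bases downstream of the TSS.

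Hist1h4i had 2 RAD21 peaks in ΔCTCF, at 4.76 (2.96 to 7.31) inside the gene and at 3.81 (2.24 to 6.13) with the summit 24 bases upstream of the TSS. Hist1h1c had a RAD21 peak at 4.76 (2.96 to 7.31), 670 bases into the gene, and was the only one of the 5 with a MAZ peak in the same condition. Hist1h1b was at 3.57 (2.06 to 5.83) and Hist1h1a at 3.17 (1.83 to 5.17), each from 14 reads, and they ranked at the 10.2 and 3.49 percentile of their list. None of these 4 genes had a RAD21 peak in any other list.

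Scaled to the depth of the WT library, the ΔCTCF peaks of Hist4h4, Hist1h4i and Hist1h1c still passed the lowest −log10 p of the WT list, 4.03, with 10.8, 5.47 and 5.47, and those of Hist1h1b and Hist1h1a, with 3.09 and 2.71, did not. Scaled to the depth of ΔCTCF/ΔMAZ, whose lowest −log10 p was 4.32, the same 3 peaks passed with 10.4, 4.87 and 4.87. Hist1h4d, an H4 gene, had RAD21 both in WT, at 6.32 (3.65 to 10.3), and in ΔCTCF, at 4.53 (2.78 to 7.01), 166 and 97 bases upstream of the TSS, with no CTCF or MAZ peak within 1 kb in any list.

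**Figure D4:**
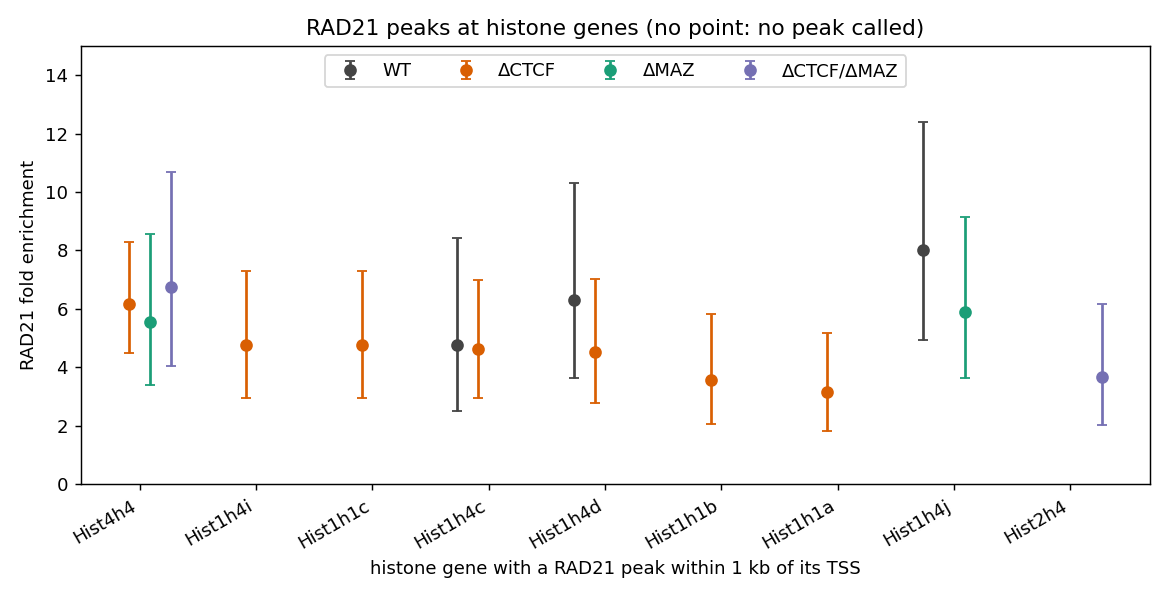
RAD21 fold enrichment (y axis) of the highest peak within 1 kb of the TSS for the 9 histone genes (x axis) with a RAD21 peak, coloured by condition, with bars for the exact 95% Poisson interval of the pileup. Hist4h4 has 3 overlapping intervals from 6.75 down to 5.54, and the 4 genes with a ΔCTCF point alone lie between 3.17 and 4.76.

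Over the clusters as a whole, CTCF peaks numbered 21 in WT and 4 in ΔCTCF, against 20 in ΔMAZ and 4 in ΔCTCF/ΔMAZ. MAZ had 5 in WT, 3 in ΔCTCF and 0 in each knockout list. RAD21 went from 23 in WT to 30 in ΔCTCF, and from 21 in ΔMAZ to 8 in ΔCTCF/ΔMAZ. Peaks that overlapped merged into 49 sites, of which 46 lay in the Hist1 cluster, 2 at Hist2h4 and 1 at Hist4h4, and none at the Hist3 pair. With lists scaled to the depth of the shallowest RAD21 list the 4 counts, in the same order, were 23, 21, 20 and 8. This scaling rests on 1 depth index and can only remove peaks. Per Mb of the Hist1 span the unscaled RAD21 counts were 10.4, 13.1, 9.01 and 2.7, against 7.47, 6.57, 7.66 and 2.35 over the genome.

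Histone genes fill only a part of the Hist1 span. Split at gaps over 100 kb, it held 4 groups of 18, 5, 29 and 2 members, with lengths of 121.8, 8.513, 233.4 and 1.079 kb. Between the groups of 5 and 29 lay 1487 kb with 40 other coding genes, and 36 of the 49 other coding genes in the whole span were Vmn1r pheromone receptor genes. Across these groups, Hist2, Hist3 and Hist4, 425.8 kb in all, CTCF had 7 peaks in WT, and RAD21 counts were 6 in WT, 11 in ΔCTCF, then 5 in ΔMAZ and 3 with both lost. Per Mb this was 16.4 for CTCF, against 9.68 over the genome, and 14.1, 25.8, 11.7 and 7.05 for RAD21, against the genome values given above. MAZ had 3 peaks in WT and 3 in ΔCTCF there, or 7.05 per Mb in each, against 2.3 and 2.48 over the genome. These groups were cut at their outermost member genes, where the genome values cover all sequence, so the rates are not like for like. By TSS, as given above, MAZ lay near a smaller share of members than of all genes. The counts were not scaled for depth, and no interval was put on these rates. In the group of 29 members RAD21 had 5 and 7 peaks without and with auxin when Maz was present, and 3 and 1 in the knockout. The group of 18, with its identical copies, held 1 CTCF peak, at Hist1h4j, and RAD21 peaks at Hist1h4j and Hist1h1b. The testis-type pair, alone at the far end, had no peak in any list.

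**Figure D5:**
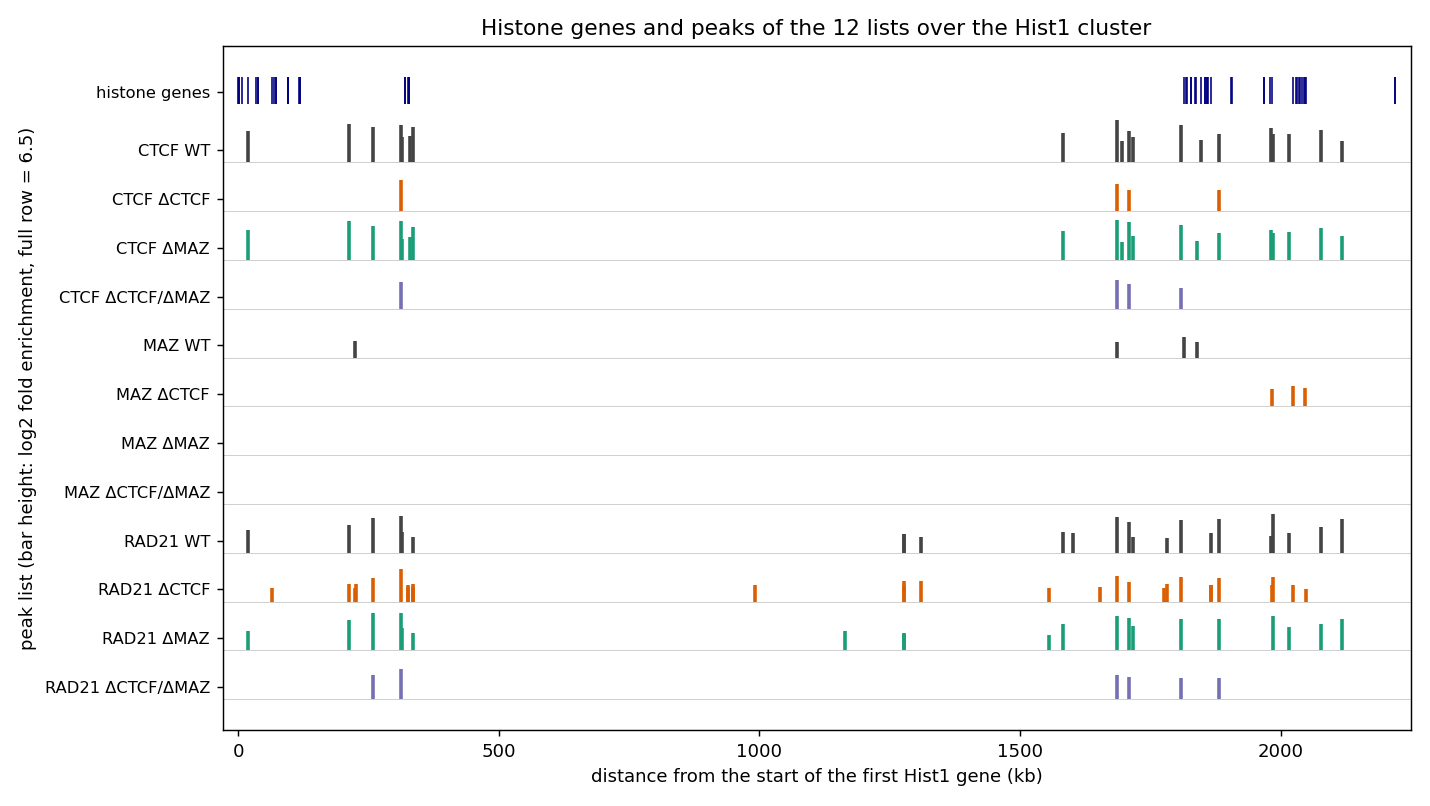
Summits of all peaks in the Hist1 cluster by list (rows; bar height is log2 fold enrichment) against distance from the start of the first gene (x axis, kb), with TSSs of the 54 histone genes as ticks on top. The middle of the long gap holds RAD21 peaks but no CTCF or MAZ peak, and the CTCF rows thin from 20 peaks to 4 after auxin in both lines.

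CTCF was called at 22 of the 49 sites in some list, and 17 of these lay more than 1 kb from any member TSS. Of the 21 WT peaks, 4 overlapped a CTCF peak in ΔCTCF (19%, 7.67 to 40%), where 8.83% of all WT CTCF peaks did. Of the 20 ΔMAZ peaks, 4 overlapped one in ΔCTCF/ΔMAZ (20%, 8.07 to 41.6%, all peaks 9.72%). At 5 sites CTCF was called in an auxin list, and 1 of these is not described here. The other 4 are shown as 101 bases round the WT summit, with core words in capitals as above, because CTCF was still called at them after auxin.
Beyond Hist1h2ah, 6706 bases from its TSS, chr13:22028841-22028941: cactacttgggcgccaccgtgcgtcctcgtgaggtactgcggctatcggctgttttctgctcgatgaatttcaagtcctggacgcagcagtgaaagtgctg
Near a tRNA-Val gene, chr13:23401767-23401867: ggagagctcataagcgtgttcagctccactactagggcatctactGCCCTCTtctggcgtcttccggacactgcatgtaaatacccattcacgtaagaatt
Near the Abt1 start, chr13:23424552-23424652: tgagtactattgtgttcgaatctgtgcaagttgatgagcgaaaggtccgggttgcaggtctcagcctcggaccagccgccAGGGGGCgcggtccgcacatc
Inside the annotated Hist1h2be gene, chr13:23598107-23598207: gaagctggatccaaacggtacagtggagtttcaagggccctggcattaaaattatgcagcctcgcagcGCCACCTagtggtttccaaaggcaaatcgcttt
Core words were found in 3 of these 4 windows, where 65.3% of all WT CTCF peaks had one. The word at the tRNA-Val site was the later addition, AGAGGGC.

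The site beyond Hist1h2ah had CTCF at 31.1 in WT and 17.7 in ΔCTCF, with 38.1 and 11.9 in the knockout before and after auxin, and RAD21 at 29, 19.4, 30.7 and 15.5 in the same order. The site 0.7 kb from a tRNA-Val gene had CTCF at 49, 12.3, 41.4 and 14.4 and RAD21 at 26, 10.5, 24 and 9.45. These were the highest RAD21 values of the clusters in the auxin lists. At 745 bases from the TSS of Abt1, a coding gene in the gap, CTCF was at 18.5, 7.25, 32.1 and 9.74 and RAD21 at 17, 6.06, 19.1 and 7.68. The site inside Hist1h2be had CTCF at 14.4, 7.35 and 12.1 in WT, ΔCTCF and ΔMAZ and none in ΔCTCF/ΔMAZ, with RAD21 at 22.2, 9.03, 18.8 and 7.03. These 4 sites had RAD21 in all 4 lists, with a lower fold enrichment in each auxin list than in the untreated list of its line, on scales that differ between lists. Another site, 0.7 kb from a tRNA-Met gene, had RAD21 in all 4 lists, at 25, 8.95, 31.2 and 8.96, with CTCF called in WT and ΔMAZ alone. The highest RAD21 value of the clusters in WT, 35.4, lay 2944 bases from the TSS of Hist1h4c, where it was 9.84 in ΔCTCF and 23.9 in ΔMAZ, with no peak in ΔCTCF/ΔMAZ, and CTCF was at 13.7 in WT and 11.6 in ΔMAZ.

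RAD21 in WT lay at a CTCF site in 17 of 23 cases (73.9%, 53.5 to 87.5%), where 89.1% of all WT RAD21 peaks did, and 9 of these 17 were still called in ΔCTCF (52.9%, 31 to 73.8%, all such peaks 39.1%). In all, 14 of the 23 WT RAD21 peaks overlapped one in ΔCTCF (60.9%, 40.8 to 77.8%), where 38.9% of all WT RAD21 peaks did. Of the 9 WT peaks with no RAD21 in ΔCTCF, 8 lay at a CTCF site (88.9%, 56.5 to 98%, all such peaks 88.8%), among them the sites upstream of Hist1h4j and beyond Hist1h4c. In the knockout 7 of 21 RAD21 peaks overlapped one in ΔCTCF/ΔMAZ (33.3%, 17.2 to 54.6%, all peaks 22.4%). Of the 14 that did not, 13 would have passed the limit of the ΔCTCF/ΔMAZ list after scaling to its depth. No share over all ΔMAZ RAD21 peaks is at hand for this count.

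RAD21 in ΔCTCF lay outside the WT peaks at 16 of 30 peaks (53.3%, 36.1 to 69.8%), where 55.9% of all ΔCTCF peaks did. At 0 of these 16 was CTCF called in any list, which allows up to 19.4% by the Wilson interval, where 3.53% of all such peaks did. The median fold enrichment of the 16 in ΔCTCF was 4.25, beside 4.85 for all RAD21 peaks of that list and 9.03 at the 9 CTCF sites with RAD21 in it. A MAZ peak of ΔCTCF lay at 2 of the 16, those of Hist1h4c and Hist1h1c (12.5%, 3.5 to 36%, all such peaks 17.7%). A RAD21 peak of ΔCTCF/ΔMAZ lay at 1, Hist4h4 (6.25%, 1.11 to 28.3%, all such peaks 10.8%). Of the 16, 7 lay within 1 kb of a member TSS and 9 passed the WT limit after scaling. No share over all such peaks is at hand for either count. One of the 4 CTCF core words lay within the 101 bases of 3 of the 16 summits (18.8%), where 31.1% of all RAD21 summits of ΔCTCF had one. With the first 3 words alone the numbers were 3 of 16 and 20.9%. One of the 4 words lay at 7 of the 9 WT RAD21 summits not called in ΔCTCF (77.8%), or 5 of 9 with the first 3 words. Of all RAD21 summits of WT, 60.3% and 36% had one. These shares are over whole lists and not over all gained or lost peaks.

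Transfer RNA genes, transcribed by RNA polymerase III, are interspersed with the Hist1 genes. RefSeq placed 77 of 403 tRNA genes in the Hist1 span, and 5.51% of the span lay within 1 kb of one. Of the 49 sites 18 had the summit of their strongest peak within 1 kb of a tRNA gene, 9 of them with CTCF. RAD21 was called within 1 kb of 13 of the 77 in WT (16.9%), 12 each in ΔCTCF and ΔMAZ (15.6%) and 5 with both lost (6.49%), against, for the 4 conditions in turn, 12.2%, 20.1%, 11.7% and 5.21% of all tRNA genes. Neighbouring tRNA genes share peaks, so these counts are not independent. RAD21 sites without CTCF included one 108 bases from a tRNA-Ser gene, at 5.24 in ΔCTCF alone, and one 44 bases from a tRNA-Met gene, at 6.09 in WT alone. Hist1h4h, whose MAZ peak lay at its promoter, had a tRNA-Met gene 600 bases from that summit.

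Genes that act on or beside the replication-dependent histones were counted in the same way, in lists of 6 to 11 genes whose intervals are wide. Over all genes RAD21 lay near 6.71% in WT and 17% in ΔCTCF, and MAZ near 19.6% and 20.4%. Of 11 replication-independent histone genes, such as H2afz and H3f3a, MAZ lay near 6 in WT and 4 in ΔCTCF (H3f3a, H2afz, H2afy and H1f0), and RAD21 near 0 in WT and 2 in ΔCTCF, H2afz and H2afy (18.2%, 5.14 to 47.7%). Of 11 genes for histone gene transcription, such as Npat, MAZ lay near 4 in WT (Pou2f1, Ccne1, Ccne2 and Nfyb) and 6 in ΔCTCF. RAD21 lay near 3 of them in WT (Pou2f1, Ccne2 and Nfyb) and 4 in ΔCTCF (36.4%, 15.2 to 64.6%), with Nfya, which encodes a subunit of the CCAAT-binding factor, as the added gene. Of 10 genes for the 3' end of histone mRNA, MAZ lay near 3 in WT (Slbp, Srrt and Lsm11) and 4 in ΔCTCF, with Cstf2 added. RAD21 lay near 1 in WT, Lsm11, and 3 in ΔCTCF (30%, 10.8 to 60.3%), with Slbp and Cpsf3 added. Of 6 histone chaperone genes, MAZ lay near 2 in WT (Asf1a and Hira) and 1 in ΔCTCF (Hira). RAD21 lay near 1 in WT, Asf1b, and 3 in ΔCTCF (50%, 18.8 to 81.2%), with Asf1a and Chaf1b added. In ΔMAZ and then ΔCTCF/ΔMAZ, RAD21 lay near 0 and 2 of the replication-independent histone genes, the latter Cenpa and H1fx, near 2 and 2 of the transcription genes (Pou2f1 and Ccne2 in both), near 1 and 1 of the 3' end genes (Lsm11) and near 1 and 1 of the chaperone genes (Asf1b).

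Ribosomal protein genes, another set of short and highly transcribed genes, carried MAZ more often than the histone genes taken as a whole. Of 83 such genes MAZ lay near 16 in WT (19.3%, 12.2 to 29%) and 23 in ΔCTCF (27.7%, 19.2 to 38.2%), and neither interval overlapped that of the 67 histone genes. Both overlapped the intervals of the 34 histone genes with at least 80% unique words, 1.63 to 19.1% in WT and 4.67 to 26.6% in ΔCTCF. RAD21 was present in ΔCTCF and not in WT at 20 of the 83 ribosomal protein genes (24.1%, 16.2 to 34.3%), against 5 of 67 histone genes (7.46%, 3.23 to 16.3%), with intervals that just overlapped, and against 13% of all genes. All 5 histone genes were among the 34 with at least 80% unique words, of which they made 14.7% (6.45 to 30.1%), where 14.2% of all genes with that share had this pattern. Of 39 Hox genes, also clustered, 4 (10.3%, 4.06 to 23.6%) had this RAD21 pattern. These intervals are of genes within single lists, treat genes as independent and hold no replicate error.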

How the data were processed

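Members and lists were chosen with earlier results of these data known. According to the study's methods, the authors mapped reads to mm10 with Bowtie 2 at default settings, filtered reads and removed PCR duplicates, and called narrow peaks with MACS, 1 list per library. Whether an input control was used and the read length are not given in the sources used here, and the spike-in of the protocol does not enter the lists. Groups came from the sample titles. The score the authors deposited was not used. The deposited fold enrichment (a ratio) was used as given, as were the authors' −log10 p and q, and the lowest −log10 q was 1.3. A whole-number pileup was solved from fold enrichment and −log10 p for all 136043 peaks within 0.001, and an exact 95% Poisson interval was put on it. For scaled lists, pileup and background were reduced to the shallowest list of the antibody, leaving out MAZ in the knockout. Overlap was at least 1 bp, and counts by bedtools 2.31.1 differed for 0 members. Named genes were the 10 members with the highest RAD21 in ΔCTCF, the members with MAZ in WT or ΔCTCF, CTCF in WT or RAD21 in ΔCTCF/ΔMAZ (at most 10 each), and any count of 5 or fewer. Sub-clusters were split at gaps over 100 kb. Alternatives were a 2.5 kb window, summits only, −log10 q of at least 5, scaled lists, any coding transcript start, 50% reciprocal overlap, shared promoters counted once and, added after seeing the data, members with at least 80% unique words and a CTCF word. For 1 of the 5 sites with CTCF in an auxin list, the sequence and values are not reported here, though it enters the counts.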

Additional observations from a re-analysis of the deposited data

Results flagged for a closer look

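The number of RAD21 peaks in the histone clusters differed with auxin in opposite directions in the 2 lines, by 7 with Maz present (23 to 30) and by -13 in the Maz knockout (21 to 8). Over the genome the RAD21 lists fell in both lines, from 20371 to 17912 peaks with Maz present and from 20872 to 6400 in the knockout. The difference in the clusters was not tested, because each condition had 1 list. RAD21 in ΔCTCF was 2.18 times as deep as in WT, and with lists scaled to 1 depth the counts were 23 and 21 with Maz present and 20 and 8 in the knockout, by a scaling that rests on 1 depth index and can only remove peaks. With peaks of −log10 q of at least 5 they were 18 and 21, and 18 and 7. The part of depth in the difference was not tested otherwise.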

How the results depend on the processing

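No paired analysis was possible because only 1 list existed per antibody and condition. Of 147 values recomputed under 8 settings, 135 lay within 1.5 times of the reported count and 12 did not. Some of the 135 were counts of 0, which the stricter settings could not change. The 2.5 kb window moved 8 of its 17 values. With a window of 2.5 kb, the members with CTCF were 9 in WT and 7 in ΔMAZ, those with RAD21 were 6 in WT, 11 in ΔCTCF and 4 in ΔMAZ, 9 members gained RAD21, 4 lost it, and 4 of the gained had MAZ in ΔCTCF. With −log10 q of at least 5, the members with RAD21 in ΔCTCF/ΔMAZ were 1 and those gaining it in the knockout 0. With scaled lists the gained members were 3. Among the members with at least 80% unique words, a limit chosen after seeing the data, 3 had CTCF in WT. The wider window can only take in more peaks, and the stricter q, the scaling and the limit on unique words only fewer. Adding a CTCF word, also after seeing the data, moved 7 WT summits to 10. Counts this small from single libraries of unequal depth do not set an order between conditions.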
